A study of Mus musculus with 8 samples.

Results

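The pyruvate dehydrogenase complex and the enzymes that switch it off and on were followed through their RNA in mouse hearts. The 10 genes are the subunit genes Pdha1, Pdhb, Dlat and Pdhx, the kinase genes Pdk1, Pdk2, Pdk3 and Pdk4, and the phosphatase genes Pdp1 and Pdp2. They were chosen by name, with earlier results of these data known. All 10 were found among the 18137 annotated genes of the deposited table. The study asked how swimming training alters cardiac RNA in aging mice. It holds 4 heart samples labelled Swimming and 4 labelled Sedentary, all of genotype WT, called swimming hearts and sedentary hearts below. The sources used here do not give the age, strain or sex of the animals or their swimming schedule. Total RNA was freed of ribosomal RNA and sequenced from random hexamers. Values are FPKM (fragments divided by transcript length and by library size), summed per gene, so that levels of different genes can be set side by side. Because a heart is a mixture, more cells of a type and more RNA per cell cannot be told apart in these values.

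The complex sits in the mitochondrial matrix and turns pyruvate, the end product of glycolysis, into acetyl-CoA for the citric acid cycle. It has a decarboxylase (E1, encoded by Pdha1 and Pdhb), an acetyltransferase core (E2, Dlat), a dehydrogenase (E3, Dld) and a protein that tethers the dehydrogenase to the core (Pdhx). Pyruvate dehydrogenase kinases phosphorylate the alpha subunit of the decarboxylase and switch the complex off, and the phosphatases switch it on again. In the heart this switch sets how much glucose and lactate is burned beside fatty acids. Pdk4 RNA is known to climb with fasting, fatty acids and glucocorticoids. RNA levels do not report the phosphorylation or activity of the complex, which were not measured here.

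The hearts expressed cardiac troponin T (Tnnt2) at 1046 to 1259 FPKM in swimming libraries and 942.5 to 1296 FPKM in sedentary libraries. The fast skeletal muscle genes Myh4, Myh2 and Actn3 stayed at or below 0.0800 FPKM in every library. All 10 skeletal muscle markers together reached 1.396 to 3.74 FPKM in swimming libraries and 1.42 to 3.20 FPKM in sedentary libraries, mostly from other genes of that list. Relative depth, estimated from the lowest values, was 1.64 in swimming replicate 2 and 0.872 to 1.00 in the other 7 libraries, in units of their geometric mean. Absolute depth is unknown. Sedentary replicate 4 stood apart by fat and liver RNA, with Adipoq at 2.80, Cfd at 12.0 and Alb at 23.2 FPKM, against at most 0.139, 0.668 and 0.0865 FPKM for the same genes in the other 7 libraries. Summed over 9 macrophage markers, the level was 210.003 to 233.9 FPKM in swimming libraries and 172.2 to 183.9 FPKM in sedentary libraries. Of these markers 9 of 9 had a positive difference, where 41.3% of all genes tested had a negative one. Summed over 12 cardiomyocyte markers the level was 12532 to 12979 FPKM in swimming libraries and 10756 to 12330 FPKM in sedentary libraries, with 6 markers positive and 6 negative. The part of either in the results below was not tested.

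Genes with a mean of at least 0.5 FPKM were compared with limma on log2(FPKM + 0.5), and a call required a Benjamini-Hochberg adjusted p below 0.05 over all genes tested. The labels number biological replicates without saying that they are separate animals, so the p-values measure only the spread between these samples. All 10 genes passed the filter, and 0 of 10 were called, with adjusted p between 0.546 and 0.904. Over all 11674 genes tested 0.0171% were called, so a count of 0 among 10 genes is near the background. At an unadjusted p below 0.05, Pdk4 was higher in swimming hearts (1 of 10 genes, against 4.93% of all genes) and Pdp2, Pdhb and Pdhx were lower (3 of 10, against 2.43% of all genes). Such genes numbered 576 higher and 284 lower in the whole table as deposited, but 398 higher and 452 lower after median-of-ratios scaling, 423 and 391 after quantile normalization and 453 and 394 after upper-quartile scaling. The difference was negative for 7 of 10 genes, where 41.3% of all genes had a negative difference, and the median over the 10 was -0.06 on the log2 scale, where that over all genes was 0.03.

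**Figure D1:**
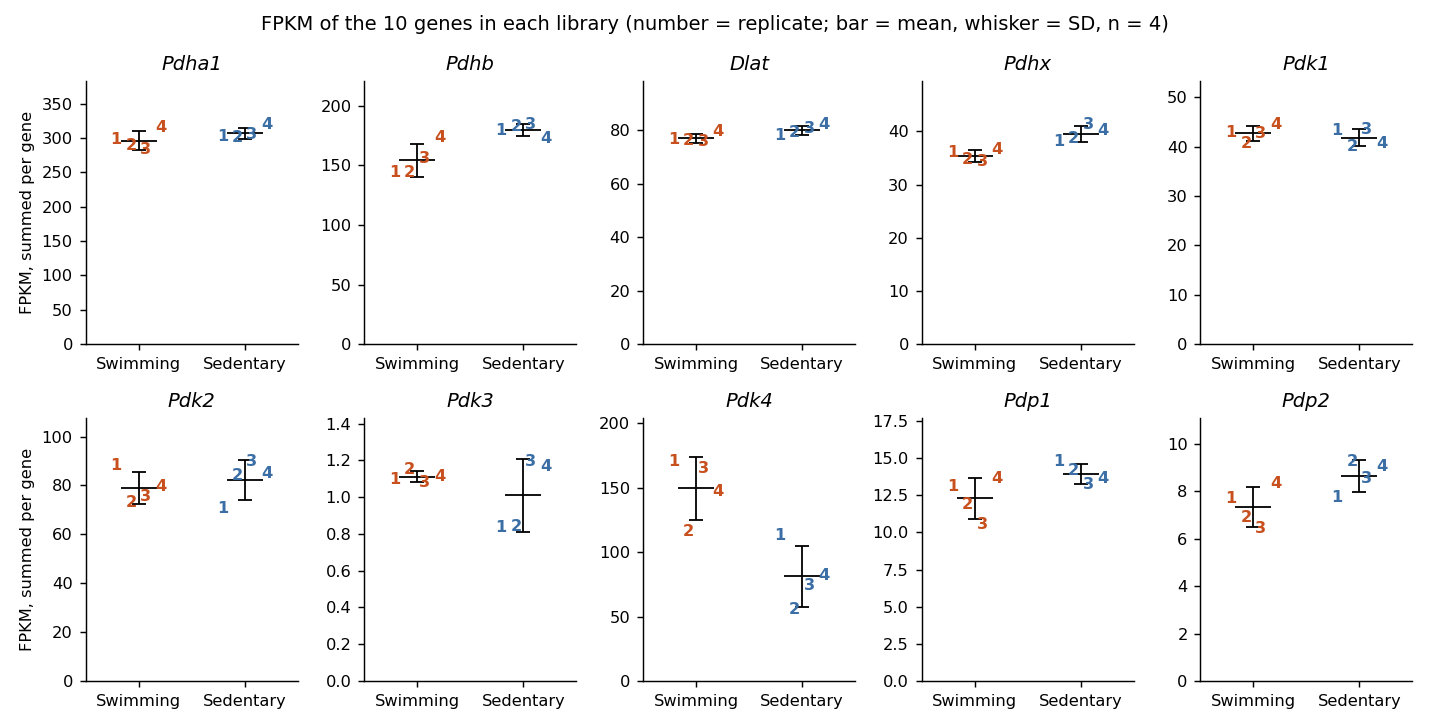
FPKM of the 10 genes in each library (1 panel a gene, linear axes from 0, each number a library and its replicate, 4 Swimming left of 4 Sedentary, bars at the group means with whiskers of 1 SD). Pdk4 is the gene whose swimming points, 116.4 to 170.4 FPKM, all lie above the sedentary points, 55.5 to 113.05 FPKM, and Pdhx is the gene whose swimming points all lie below.

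The upstream sequences of 4 genes are shown because the results turn on them: Pdk4 and Pdhx, whose groups did not overlap, Pdhb, with the most negative difference among the subunits, and Pdk2, the kinase gene that matched Pdk4 in level in sedentary hearts. They come from RefSeq on GRCm38.p6, run 5′ to 3′ on the gene's strand and end before the first annotated transcribed base. Capitals mark the CCAAT box (CCAAT), the GC box (GGGCGG), the E-box (CACGTG) and the hypoxia core (ACGTG), each searched on both strands, so that ATTGG is a CCAAT box and CACGT a hypoxia core read from the other strand. The E-box holds the hypoxia core on both strands.
Pdk4 (chr6:5496310-5496528, minus strand): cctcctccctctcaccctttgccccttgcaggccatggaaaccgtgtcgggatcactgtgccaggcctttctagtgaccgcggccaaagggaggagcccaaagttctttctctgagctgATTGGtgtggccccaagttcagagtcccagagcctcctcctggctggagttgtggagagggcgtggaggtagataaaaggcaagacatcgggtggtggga
Pdk2 (chr11:95041372-95041621, minus strand): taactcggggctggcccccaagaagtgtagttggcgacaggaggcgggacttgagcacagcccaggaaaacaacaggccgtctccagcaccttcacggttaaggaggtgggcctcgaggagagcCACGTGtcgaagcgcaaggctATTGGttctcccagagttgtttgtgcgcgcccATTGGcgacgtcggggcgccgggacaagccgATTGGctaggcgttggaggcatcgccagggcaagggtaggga
Pdhx (chr2:103073514-103073763, minus strand): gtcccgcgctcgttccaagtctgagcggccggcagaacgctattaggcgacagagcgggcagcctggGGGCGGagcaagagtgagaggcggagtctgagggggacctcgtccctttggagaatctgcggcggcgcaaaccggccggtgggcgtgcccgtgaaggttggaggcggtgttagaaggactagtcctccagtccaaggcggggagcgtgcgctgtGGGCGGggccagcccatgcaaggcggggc
Pdhb (chr14:8173026-8173242, minus strand): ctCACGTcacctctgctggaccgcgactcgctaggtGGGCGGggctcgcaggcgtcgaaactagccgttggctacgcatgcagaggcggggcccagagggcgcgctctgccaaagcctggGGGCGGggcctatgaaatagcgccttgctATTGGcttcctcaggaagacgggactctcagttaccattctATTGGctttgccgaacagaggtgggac
RefSeq gave a window of 250 bases before the start for 9 of the 10 genes. Pdk4 had 6 CpG dinucleotides in its window, the median of all 32817 mouse windows of that length, and the other 8 genes had between 11 (Pdp2) and 29 (Pdk3). Pdk4 shared a CCAAT box with Pdk2, Pdk3, Pdp2 and Pdhb, a motif found in 33.8% of all windows. The GC box was found in Pdk1, Pdk3, Pdp2, Pdhb, Dlat and Pdhx and in 32.7% of all windows, and the E-box in Pdk2 and Pdp2 and in 6.02%. The hypoxia core, searched only as ACGTG, was found in Pdk2, Pdk3, Pdp2 and Pdhb and in 16.6% of all windows. The form GCGTG was not searched, so windows without ACGTG may still hold it. Letters of the forkhead (FOXO) element (GTAAACA), the nuclear receptor core (AGGTCA), the estrogen-related receptor element (TNAAGGTCA, which holds that core), the glucocorticoid receptor core (AGAACA) and the TATA box (TATAAA) were found in none of the 9 windows, against 3.16%, 14.0%, 1.14%, 16.1% and 12.4% of all windows. Sites farther from the start were not searched.

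Among the subunit genes, 4 of 4 had a negative difference, with log2 values from -0.22 to -0.05 and a median of -0.10. Pdha1 (chrX:160122209-160138413, minus strand, mm10) encodes the alpha subunit of the decarboxylase, the protein on which the kinases act. It had 297.04, 288.5, 282.6 and 314.5 FPKM in swimming replicates 1 to 4 and 301.7, 300.9, 305.2 and 319.0 FPKM in sedentary replicates 1 to 4. It was the most abundant of the 10 genes in both groups, its groups overlapped, and the difference of -0.05 had a 95% interval of -0.17 to 0.06. Its 3′ end overlaps that of Map3k15, on the opposite strand, which averaged 0.522 FPKM over the 8 libraries.

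Pdhb (chr14:8165996-8173025, minus strand) encodes the beta subunit that pairs with the product of Pdha1. It had 143.9, 143.9, 155.5 and 173.5 FPKM in swimming libraries and 179.0, 182.8, 183.9 and 172.5 FPKM in sedentary libraries. Swimming replicates 1 to 3 lay below every sedentary library, and swimming replicate 4 lay just above sedentary replicate 4. The means were 154.2 ± 14.0 FPKM in swimming hearts and 179.5 ± 5.13 FPKM in sedentary hearts (SD, n = 4 each), a log2 difference of -0.22 (SE 0.0676, limma adjusted p = 0.608). The 2 genes of the decarboxylase therefore stood in a Pdha1 to Pdhb ratio of 1.92 ± 0.129 in swimming hearts and 1.71 ± 0.0940 in sedentary hearts, with ranges that overlapped.

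Dlat (chr9:50634633-50659780, minus strand) encodes the acetyltransferase core. It had 76.5, 76.1, 75.8 and 79.5 FPKM in swimming libraries and 77.8, 79.2, 80.6 and 81.9 FPKM in sedentary libraries, a difference of -0.05 with an interval of -0.14 to 0.04. Pdhx (chr2:103021075-103073513, minus strand), whose product binds the dehydrogenase to that core, had 36.0, 34.7, 34.3 and 36.7 FPKM in swimming libraries and 38.1, 38.6, 41.2 and 40.1 FPKM in sedentary libraries. Every swimming library lay below every sedentary library, which held for 1.58% of all genes. The means were 35.4 ± 1.12 FPKM in swimming hearts and 39.5 ± 1.42 FPKM in sedentary hearts, a log2 difference of -0.16 (SE 0.0450, limma adjusted p = 0.608).

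Dlat over Pdhx, the core against its tether, was 2.12, 2.19, 2.21 and 2.17 in swimming libraries and 2.04, 2.05, 1.95 and 2.04 in sedentary libraries. This ratio, which does not depend on the scaling of a library, was higher in every swimming library than in any sedentary library. It was not tested, and how many other gene pairs separate in this way was not counted. Sedentary replicate 3 stood below the rest of its group. The overlap of Pdhb and Dlat did depend on scaling. After median-of-ratios scaling Pdhb was at 139.8 to 168.9 FPKM in swimming libraries and 175.3 to 185.5 FPKM in sedentary libraries. Dlat was then at 74.3 to 77.3 FPKM in swimming libraries and 77.8 to 83.2 FPKM in sedentary libraries. Swimming libraries lay below all sedentary ones for Pdhb, Dlat and Pdhx under this scaling (3 of 10 genes, against 2.74% of all genes) and for the same 3 genes under upper-quartile scaling (against 2.31%). Overlap was not examined under quantile normalization. The Dlat difference was -0.008 there, against -0.09 after median-of-ratios scaling, and those of Pdhb and Pdhx were -0.22 and -0.14.

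Among the kinase genes, 1 of 4 had a negative difference and Pdk4 had a positive one of 0.91, with the other 3 between -0.06 and 0.10. Pdk4 (chr6:5483351-5496309, minus strand) had 170.4, 116.4, 165.03 and 147.0 FPKM in swimming libraries and 113.05, 55.5, 74.4 and 81.7 FPKM in sedentary libraries. Every swimming library lay above every sedentary library, which held for 3.24% of all genes, but the lowest swimming value, in replicate 2, was close to the highest sedentary value, in replicate 1. The means were 149.7 ± 24.3 FPKM in swimming hearts and 81.2 ± 24.0 FPKM in sedentary hearts, a ratio of 1.84. The log2 difference was 0.91 (SE 0.216, 95% interval 0.41 to 1.41, limma adjusted p = 0.546). Its p ranked 64 among the 11674 genes, and the difference stood at the 99.2nd percentile.

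The Pdk4 difference ranged from 0.74 without sedentary replicate 2 to 1.08 without sedentary replicate 1. Without sedentary replicate 4, the library with fat and liver RNA, it was 0.93. Pdk4 is also expressed in skeletal muscle and fat. The summed level of 10 skeletal muscle markers was 1.396 to 3.74 FPKM in swimming libraries and 1.42 to 3.20 FPKM in sedentary libraries, so these markers were near 0 beside Pdk4 in both groups. The summed level of 10 fat markers was 177.8 to 228.9 FPKM in swimming libraries and 173.03 to 250.7 FPKM in sedentary libraries, and its part in the Pdk4 values was not tested. Most of that sum was Fabp4, which endothelium also expresses, at 165.9 to 218.3 FPKM in swimming libraries and 163.7 to 202.9 FPKM in sedentary libraries. Within this list the brown fat gene Ucp1 was at 0 in all 4 swimming libraries. In sedentary replicates 1 to 4 it was at 0.0179, 0, 0 and 0.540 FPKM, highest in the library with fat and liver RNA.

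Pdk2 (chr11:95026258-95041354, minus strand), the kinase with a broad distribution over tissues, had 88.1, 72.8, 75.4 and 79.7 FPKM in swimming libraries and 70.5, 84.1, 89.7 and 84.9 FPKM in sedentary libraries. Its groups overlapped along their length, and the difference of -0.06 had an interval of -0.27 to 0.15. It moved between -0.13, without sedentary replicate 1, and -0.01, without sedentary replicate 3. Sedentary replicate 1, the sedentary library with the most Pdk4, had the least Pdk2 of all 8 libraries. The antisense gene Gm11513 lies within Pdk2 on the opposite strand, and no source used here says whether reads were counted by strand.

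Pdk1 (chr2:71873224-71903858, plus strand), known as a target of hypoxia-inducible factor, had 42.9, 40.6, 42.7 and 44.4 FPKM in swimming libraries and 43.3, 40.0013, 43.4 and 40.6 FPKM in sedentary libraries. The difference of 0.03, which was -0.003 after median-of-ratios scaling, had an interval of -0.08 to 0.14, so that it was bounded more tightly than that of any other kinase gene. Pdk3 (chrX:93764607-93832201, minus strand) was the least abundant of the 10 genes, with 1.10, 1.15, 1.08 and 1.11 FPKM in swimming libraries and 0.834, 0.841, 1.19 and 1.17 FPKM in sedentary libraries. The sedentary libraries of Pdk3 lay in pairs below and above the narrow swimming range, and the difference was 0.10 with an interval of -0.14 to 0.35, moving between 0.05 and 0.16 as single libraries were left out.

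**Figure D2:**
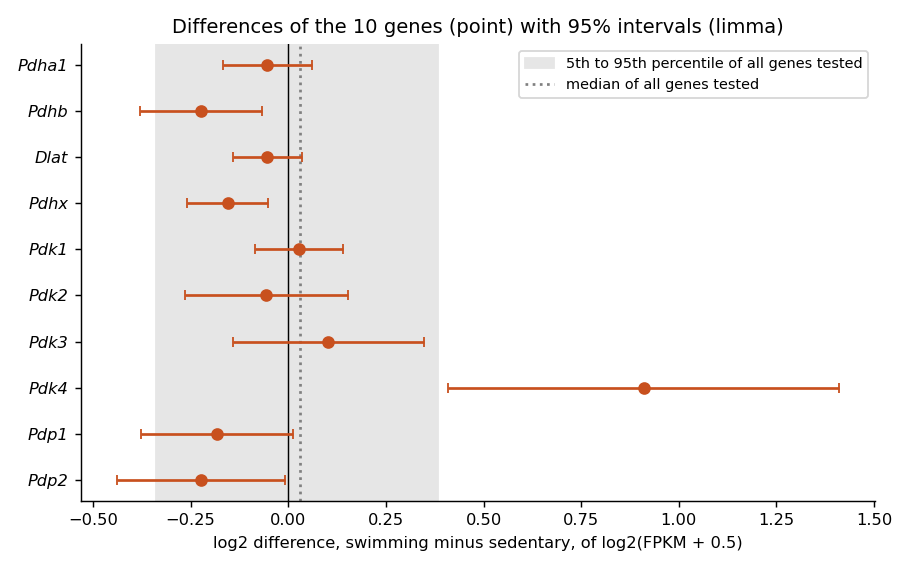
Log2 difference, swimming minus sedentary, of each of the 10 genes on the log2(FPKM + 0.5) scale (points, with 95% intervals from limma), with the median of all genes as a dotted line and their 5th to 95th percentile, -0.34 to 0.38, shaded. The interval of Pdk4, 0.41 to 1.41, lies to the right of 0, and the intervals of Pdhb, Pdhx and Pdp2 lie to the left.

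Summed over the 4 kinase genes, the level was 302.4, 231.04, 284.2 and 272.3 FPKM in swimming libraries and 227.7, 180.4, 208.8 and 208.3 FPKM in sedentary libraries. Without Pdk4 the sum was 122.8 ± 7.57 FPKM in swimming hearts and 125.1 ± 8.11 FPKM in sedentary hearts. The difference in kinase RNA was thus carried by Pdk4, which held 56.3%, 50.4%, 58.1% and 54.0% of the sum in swimming libraries and 49.7%, 30.7%, 35.6% and 39.2% in sedentary libraries. Pdk4 over Pdk2 was 1.89 ± 0.244 in swimming hearts and 1.01 ± 0.413 in sedentary hearts. Pdk4 over Pdha1, the kinase gene against the gene of its substrate, was 0.574, 0.404, 0.584 and 0.467 in swimming libraries and 0.375, 0.184, 0.244 and 0.256 in sedentary libraries. These sums and ratios describe the genes already given and were not tested on their own.

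**Figure D3:**
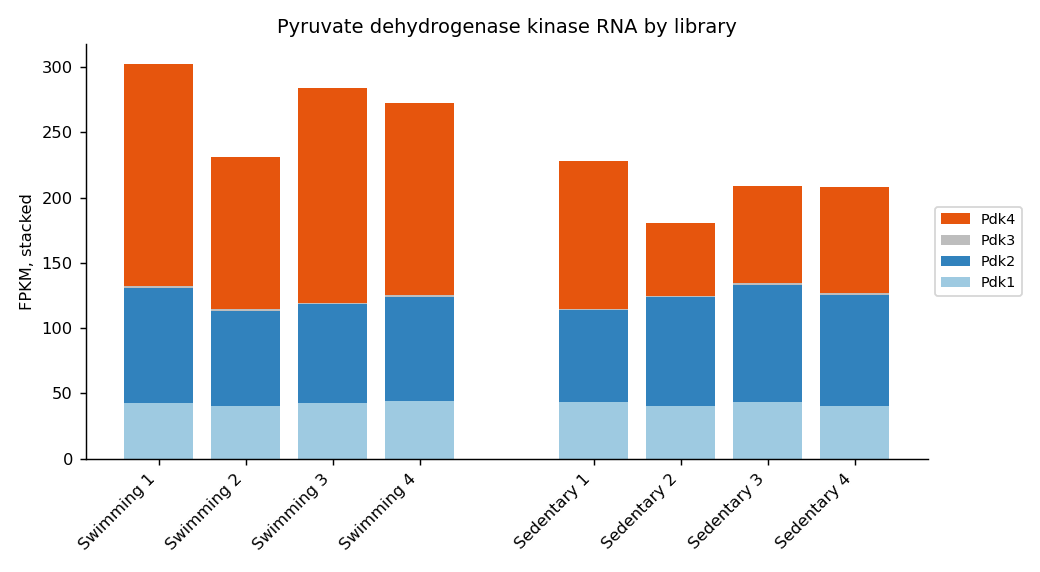
FPKM of Pdk1, Pdk2, Pdk3 and Pdk4 stacked for each library (bars starting at 0, 4 Swimming libraries left of 4 Sedentary libraries). The stack reaches 231.04 to 302.4 FPKM in swimming libraries and 180.4 to 227.7 FPKM in sedentary libraries, and the Pdk4 segment makes the difference.

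Both phosphatase genes had a negative difference. Pdp2 (chr8:104591451-104599026, plus strand) had 7.71, 6.88, 6.45 and 8.33 FPKM in swimming libraries and 7.74, 9.25, 8.52 and 9.04 FPKM in sedentary libraries. Swimming replicates 1 to 3 lay below every sedentary library, replicate 1 by little, and replicate 4 lay among them. The log2 difference was -0.22 (95% interval -0.44 to -0.01, limma adjusted p = 0.665). Pdp1 (chr4:11958184-11966452, minus strand), the calcium-stimulated phosphatase of muscle, had 13.1, 11.9, 10.6 and 13.6 FPKM in swimming libraries and 14.8, 14.2, 13.2 and 13.6 FPKM in sedentary libraries. Its difference was -0.18 (interval -0.38 to 0.01, limma adjusted p = 0.679), and 3 of 4 swimming libraries lay below every sedentary library.

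The phosphatase sum was 20.8, 18.7, 17.0 and 22.0 FPKM in swimming libraries and 22.5, 23.4, 21.7 and 22.7 FPKM in sedentary libraries. Kinase RNA exceeded phosphatase RNA in every library. The ratio of the sums was 14.5, 12.3, 16.7 and 12.4 in swimming libraries and 10.1, 7.70, 9.60 and 9.19 in sedentary libraries, without overlap. Pdk4 is part of this ratio, which combines genes already given above and was not tested on its own. How many other ratios of sums separate in this way was not counted.

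Transcripts were read beside the gene sums. GENCODE M21 annotates 46 transcripts of the 10 genes, 17 were listed in the table, and 15 of these had a mean of at least 0.5 FPKM. None of the 15 passed the adjusted threshold in limma, where 0.0531% of 22614 transcripts did. At an unadjusted p below 0.05, Pdk4-201 was higher (1 of 15, against 3.41% of all transcripts) and Pdhb-201, Pdhx-201 and Pdp1-205 were lower (3 of 15, against 2.09%). Pdk4-201 was above all sedentary libraries in every swimming library (2.6% of all transcripts were) and Pdhx-201 was below them (1.4% were). Pdk1, Pdk2, Pdk3, Pdp2, Pdha1, Pdhb and Dlat were each listed with 1 transcript, which is then the gene value. Pdk4-201, with a coding sequence of 412 codons, carried nearly all Pdk4 RNA, since the short Pdk4-203 reached at most 0.983 FPKM. Pdhx-201, with 501 codons, averaged 33.8 ± 1.07 FPKM in swimming hearts and 38.0 ± 1.51 FPKM in sedentary hearts. The shorter Pdhx-202, with 220 codons, averaged 1.46 ± 0.209 FPKM in swimming hearts and 1.33 ± 0.426 FPKM in sedentary hearts.

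Pdp1 was the gene with several transcripts of sizeable level. Pdp1-203, with 538 codons and the longest annotated transcript at 4201 bases, had 8.12, 7.90, 8.33 and 10.5 FPKM in swimming libraries and 7.67, 7.02, 8.18 and 7.77 FPKM in sedentary libraries, a difference of 0.17 (adjusted p = 0.879). Its share of the Pdp1 sum was 62.1%, 66.6%, 78.9% and 76.8% in swimming libraries and 51.9%, 49.5%, 61.9% and 57.0% in sedentary libraries. The shares did not overlap, although swimming replicate 1 and sedentary replicate 3 were nearly equal, and the mean difference was 16.0 percentage points. How often transcript shares of other genes separate in this way was not counted. An exact two-sided permutation test gave p = 0.0286, the smallest that 70 assignments allow, and 0.0571 after adjustment over the 2 genes tested. With 2 tests this design cannot bring 1 gene below 0.05 after adjustment unless the other separates too, so the adjusted value does not bear on the difference either way. The share of Pdhx-201, the other test, was 95.3% ± 0.592 in swimming hearts and 96.2% ± 0.921 in sedentary hearts (SD, n = 4 each, exact permutation p = 0.171).

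The remaining Pdp1 transcripts encode longer proteins and end upstream of the end of Pdp1-203. Pdp1-205, with 597 codons, had 0.917, 1.03, 0.195 and 1.34 FPKM in swimming libraries and 1.54, 1.73, 1.30 and 1.995 FPKM in sedentary libraries, a difference of -0.72 (adjusted p = 0.877). Pdp1-206, with 578 codons, had 1.64, 0.534, 1.28 and 1.31 FPKM in swimming libraries and 0.817, 2.09, 1.45 and 2.84 FPKM in sedentary libraries. Pdp1-202 and Pdp1-204 share a coding sequence of 563 codons. Pdp1-202 had 0.936, 0.775, 0.753 and 0 FPKM in swimming libraries and 3.66, 0.841, 1.04 and 0.00608 FPKM in sedentary libraries. Pdp1-204 had 1.48, 1.63, 0 and 0.506 FPKM in swimming libraries and 1.08, 2.501, 1.25 and 1.03 FPKM in sedentary libraries. The sum of Pdp1 was thus lower in swimming hearts on average while its most abundant transcript was not. These transcripts share most of their bases, and no source used here says how reads were divided among them.

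**Figure D4:**
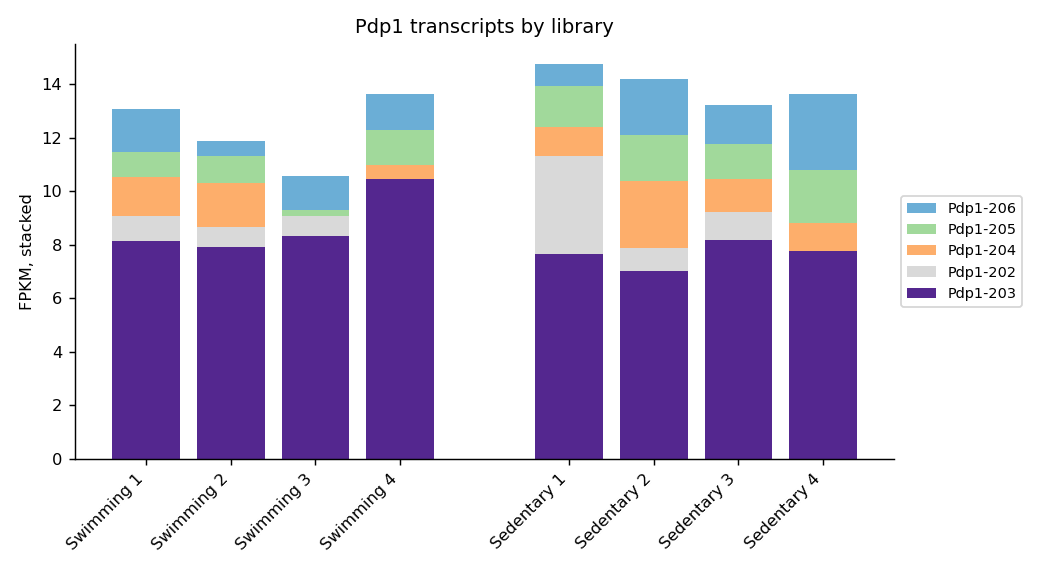
FPKM of the 5 listed Pdp1 transcripts stacked for each library (bars starting at 0, Swimming left of Sedentary). The Pdp1-203 segment spans 7.90 to 10.5 FPKM in swimming libraries and 7.02 to 8.18 FPKM in sedentary libraries, and the rest of the stack is taller in sedentary libraries.

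The order of the levels was led by Pdha1 in both groups. In swimming hearts it ran on with Pdhb and Pdk4, whose ranges overlapped, then Pdk2 and Dlat, whose ranges overlapped, then Pdk1, Pdhx, Pdp1, Pdp2 and Pdk3, each apart from the next. In sedentary hearts Pdhb stood alone in the next place, above Pdk2, Pdk4 and Dlat, whose ranges overlapped. Pdk1 and Pdhx overlapped there, followed by Pdp1, Pdp2 and Pdk3. Pdk4 was therefore a neighbour of Pdhb in swimming hearts and of Pdk2 and Dlat in sedentary hearts.

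Of 14 partner genes of the complex, for its dehydrogenase, its cofactors and related enzymes, 12 were tested, 0 passed the adjusted threshold, 1 was higher at an unadjusted p below 0.05 (4.93% of all genes were), 3 had a positive and 9 a negative difference, and the median was -0.06. Dld, the dehydrogenase that the complex shares with other 2-oxoacid dehydrogenases, had 117.7, 112.8, 114.1 and 118.8 FPKM in swimming libraries and 116.1, 121.1, 125.4 and 130.9 FPKM in sedentary libraries, a difference of -0.09 (adjusted p = 0.713). Its sign was that of the 4 subunit genes. The thiamine transporter gene Slc19a2 had the smallest p of the list, with 2.48 ± 0.407 FPKM in swimming hearts and 1.88 ± 0.321 FPKM in sedentary hearts (difference 0.32, adjusted p = 0.671). Lipt1, which attaches lipoate, had a difference of 0.58 (adjusted p = 0.702). The difference farthest from 0 in this list was that of Sirt3, a mitochondrial deacetylase, which had 11.5, 1.32, 1.12 and 1.91 FPKM in swimming libraries and 8.67, 3.77, 6.07 and 6.13 FPKM in sedentary libraries. Swimming replicate 1 of Sirt3 lay above every sedentary library and the other 3 lay below them, so that the difference of -1.08 had an interval of -2.52 to 0.36 (adjusted p = 0.719).

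Of 23 genes that supply or divert pyruvate, all were tested, 0 passed the adjusted threshold, and 8 had a positive and 15 a negative difference, with a median of -0.06. At an unadjusted p below 0.05, 2 of 23 were lower and 0 higher, against 2.43% and 4.93% of all genes. Slc16a1, the lactate and pyruvate carrier of the cell membrane, had 64.1, 66.2, 62.9 and 64.6 FPKM in swimming libraries and 73.1, 73.0, 71.8 and 72.6 FPKM in sedentary libraries (difference -0.17, adjusted p = 0.479). Hexokinase Hk2, the entry of glucose into glycolysis, had 65.5, 68.0, 67.7 and 64.0 FPKM in swimming libraries and 71.0, 77.6, 75.7 and 73.1 FPKM in sedentary libraries (difference -0.16, adjusted p = 0.586). For neither gene did the groups overlap, where 1.58% of all genes lay lower in swimming hearts without overlap. Slc16a3 (0.32) and citrate synthase Cs (-0.10) had overlapping groups.

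The mitochondrial pyruvate carrier, which feeds the complex, is built from Mpc1 and Mpc2. Mpc2 had 131.9, 122.2, 126.5 and 138.8 FPKM in swimming libraries and 132.2, 135.6, 147.0 and 139.8 FPKM in sedentary libraries (difference -0.09, adjusted p = 0.725). Mpc1 was listed far lower, at 0.906 to 4.15 FPKM in swimming libraries and 1.53 to 3.88 FPKM in sedentary libraries. Assembled transcripts without a gene name held 11.3% to 12.5% of the FPKM total of a library and are not in the gene values, and their part in the Mpc1 level was not tested. Lactate dehydrogenase genes had differences of -0.06 (Ldha) and 0.01 (Ldhb). The sign of Ldha turned without swimming replicate 1, and that of Ldhb turned under median-of-ratios and upper-quartile scaling and without swimming or sedentary replicate 1.

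The next list held 38 genes, those known to respond with Pdk4 to fasting or fatty acids and the regulators of such genes. All were tested, 0 passed the adjusted threshold, and 23 had a positive and 15 a negative difference, with a median of 0.01. At an unadjusted p below 0.05, 1 of 38 was higher and 1 lower, no more than the 4.93% and near the 2.43% of all genes. Acot2, a mitochondrial acyl-CoA thioesterase, had 41.3, 30.3, 29.3 and 37.7 FPKM in swimming libraries and 27.2, 24.3, 25.9 and 27.8 FPKM in sedentary libraries. Its groups did not overlap (3.24% of all genes lay higher in this way), with a difference of 0.38 (adjusted p = 0.608). Hadhb, of the trifunctional protein of fatty acid oxidation, had 46.6 ± 7.49 FPKM in swimming hearts and 58.5 ± 7.26 FPKM in sedentary hearts (difference -0.33, adjusted p = 0.658). Well-known fasting genes that share regulators with Pdk4 gave overlapping groups, with differences of 0.12 for Ucp3, 0.07 for Angptl4 and 0.003 for Cpt1b, all 3 with a sign that turned when some library was left out, and Cpt1b also under median-of-ratios and upper-quartile scaling. The receptors Ppara (-0.20) and Ppard (-0.03) and the forkhead factors Foxo1 (0.10) and Foxo3 (0.19) overlapped too, as did Esrrg (-0.17), and Ppara and Ppard turned sign when a library was left out.

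Of 18 glucocorticoid and hypoxia genes, 17 were tested and 0 passed the adjusted threshold. The list holds targets and also Hif1a and Epas1, which encode hypoxia-inducible factors. The difference was positive for 12 genes and negative for 5, with a median of 0.10. At an unadjusted p below 0.05, 1 of 17 was higher and 1 lower, near the 4.93% and 2.43% of all genes. Egln3, the prolyl hydroxylase induced by hypoxia, had 14.2, 20.6, 20.6 and 14.5 FPKM in swimming libraries and 23.3, 21.7, 30.2 and 23.5 FPKM in sedentary libraries (difference -0.50, adjusted p = 0.608). Metallothionein Mt2, which glucocorticoids and metals induce, had 19.6, 29.3, 50.1 and 15.5 FPKM in swimming libraries and 11.6, 9.11, 15.2 and 14.5 FPKM in sedentary libraries (difference 1.04, adjusted p = 0.626). Neither pair of groups overlapped, where 1.58% of all genes lay lower and 3.24% higher without overlap. Mt1 had a difference of 0.49 with overlapping groups. Other glucocorticoid genes of the list had overlapping groups too. Differences were positive for Fkbp5 (1.28), Cdkn1a (0.20), Per1 (0.16), Zbtb16 (0.10) and Klf9 (0.06). They were negative for Sgk1 (-0.01), Dusp1 (-0.12) and Tsc22d3 (-0.31). Bnip3, a mitophagy receptor, was uneven within the sedentary group, with 1.71, 2.29, 5.12 and 2.27 FPKM in swimming libraries and 3.51, 3.25, 98.8 and 53.1 FPKM in sedentary libraries. Hadha, from the list of fatty acid genes, was uneven in both groups. It had 0, 0, 129.1 and 0.458 FPKM in swimming libraries and 3.28, 141.5, 0 and 0 FPKM in sedentary libraries. Assembled transcripts without a gene name are not in the gene values. Their part in the uneven levels of Bnip3, Hadha and Sirt3 was not tested.

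**Figure D5:**
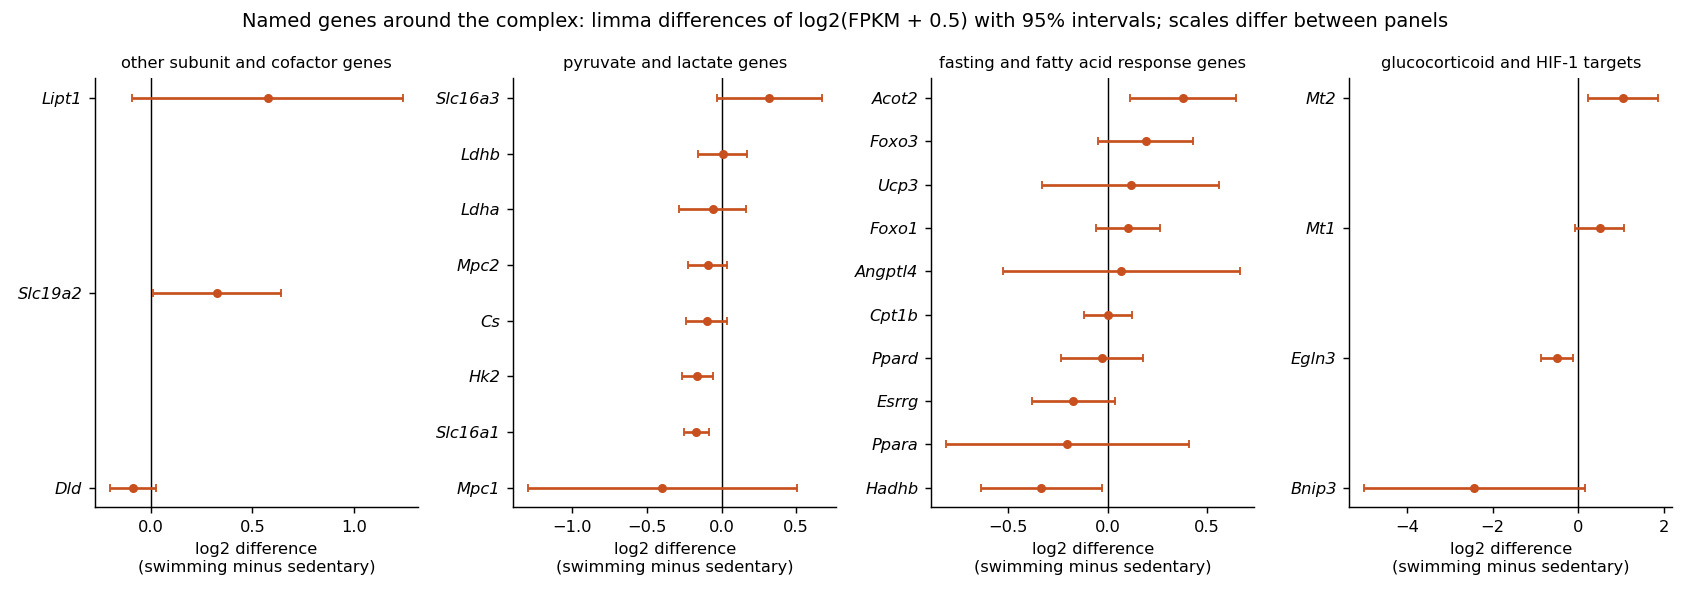
Log2 differences, swimming minus sedentary, of genes named from the 4 partner lists (points, with 95% intervals from limma), 1 panel a list with its own horizontal scale, in log2(FPKM + 0.5) units. The intervals of Slc16a1, Hk2, Hadhb and Egln3 lie left of 0, and those of Slc19a2, Acot2 and Mt2 lie right of 0.

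Across the 8 libraries, the genes whose log2 level followed Pdk4 most closely were Snapc2, Glul, Ddx1, Klhl40 and Slc39a11, with Pearson r of 0.970, 0.963, 0.955, 0.955 and 0.953. The libraries of both groups enter these values, so a gene that differs between the groups can rank high. The 5 were picked as the highest among genes with a mean of at least 1 FPKM. These numbered 10401 before genes with provisional names were left out. Over 8 libraries such a pick can give high r by itself, and no test was made. Glul, glutamine synthetase, had 158.7, 141.5, 156.0 and 161.6 FPKM in swimming libraries and 140.8, 121.9, 124.3 and 135.4 FPKM in sedentary libraries. Snapc2 ranked the 8 libraries exactly as Pdk4 did, with a Spearman rho of 1.00. Its level was 5.24 to 6.10 FPKM in swimming libraries and 4.21 to 4.93 FPKM in sedentary libraries. Klhl40, a muscle kelch protein, averaged 8.25 ± 0.543 FPKM in swimming hearts and 6.80 ± 0.923 FPKM in sedentary hearts.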

How the data were processed

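For 4 Swimming and 4 Sedentary heart libraries, the authors deposited a table of FPKM per transcript, as its header shows. The genome build was mm10, and HISAT2, Subread, Salmon 0.8.2, STAR 2.5.1a and featureCounts 1.4.6-p5 are named per the submitters' processing notes. The tool behind the FPKM values, its annotation and its strand setting are not given in the sources used here. GENCODE M21 named 45676 of 51169 transcripts, which were summed to 18137 genes, and 5427 assembled transcripts without a gene name stayed out of the sums. Absolute depth is unknown, so no counting interval is given.

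Genes or transcripts with a mean of at least 0.5 FPKM over the 8 libraries entered limma 3.58.1 (R 4.3.3; eBayes with trend, two-sided) as log2(FPKM + 0.5), with Benjamini-Hochberg adjustment over all features tested. This scale understates differences of genes with low values. Shares of a transcript in its gene were tested by exact permutation over 70 assignments. Summaries and plots used scipy 1.17.1, pandas 2.3.3 and matplotlib 3.10.9 under Python 3.11.15. The fit was tested on simulated data. Other settings tried were pseudocounts, filters and scalings, a block for the replicate number, weights for libraries, other variance models, and leaving out each library.

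The members and the gene lists were chosen with earlier results of these data known. The text names all 10 members, their transcripts with a mean of at least 0.5 FPKM, up to 4 genes with the smallest p in each partner list, partner genes chosen whatever their values (Dld, Mpc1, Mpc2, Ldha, Ldhb, Ppara, Ppard, Angptl4, Ucp3, Cpt1b and Foxo1), and the 5 genes most correlated with Pdk4 among named genes with a mean of at least 1 FPKM. Some genes that this rule names are not reported here. Pdk4-203, Sirt3, Hadha, Hif1a, Epas1 and the marker genes Tnnt2, Myh4, Myh2, Actn3, Fabp4 and Ucp1 were named after their values were seen. So were Fkbp5, Cdkn1a, Per1, Zbtb16, Klf9, Sgk1, Dusp1 and Tsc22d3.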

Additional observations from a re-analysis of the deposited data

Results flagged for a closer look

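In 110 groups of 4 libraries, the value farthest from the rest was compared with Dixon's 95% critical value for 4 values, which chance passes in about 1 of 20 groups, and 6 groups passed. Pdp1-203 was at 10.5 FPKM in swimming replicate 4, against 7.90 to 8.33 FPKM in the other swimming libraries. Pdp1-204 was at 2.501 FPKM in sedentary replicate 2, against 1.03 to 1.25 FPKM in the rest of its group. The ratio of Dlat to Pdhx was 1.95 in sedentary replicate 3, against 2.04 to 2.05 in the others of that group. Hadhb was at 69.3 FPKM in sedentary replicate 1, against 53.5 to 55.7 FPKM. Cpt1b was at 185.6 FPKM in swimming replicate 4, against 166.8 to 169.3 FPKM. Bnip3 was at 5.12 FPKM in swimming replicate 3, against 1.71 to 2.29 FPKM.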

How the results depend on the processing

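The count of called member genes, member transcripts and partner genes was 0 under every alternative run. The Pdk4 difference kept its sign throughout, with adjusted p from 0.297 to 0.826. Pdhx lay between -0.19 and -0.14, Pdhb between -0.28 and -0.19, and Pdp2 between -0.28 and -0.17. Dlat lay between -0.0854 and -0.00753 and Pdha1 between -0.0854 and -0.0315, both nearest 0 under quantile normalization. Of all genes, 2 were called, against 1 with a pseudocount of 0.1, 1 with quantile normalization, 0 with a replicate block, and 0 to 5 when a library was left out. Of all transcripts, 12 were called, against 7 with a mean of at least 1 FPKM, 0 with a replicate block, and 7 to 25 when a library was left out. With the replicate block, Pdk4 had an adjusted p of 0.826. Deviations of same-numbered libraries correlated at -0.05, 0.01, -0.003 and 0.02, so no pairing by replicate number was visible in the values. The labels do not say whether the numbers pair the libraries. Signs turned for Pdk1 (-0.00341) and Pdk1-201 (-0.000108) under median-of-ratios scaling, and for Pdp1 (0.17) when its highest transcript stood for the gene. Cpt1b turned to -0.0287 under median-of-ratios and -0.0171 under upper-quartile scaling and to -0.00212 with library weights, and Ldhb to -0.0245, -0.0129 and -0.0180 under the same settings. With a library left out, Cpt1b ranged from -0.0314 to 0.0292, Ldhb from -0.0476 to 0.0438, Angptl4 from -0.0696 to 0.327, Ldha from -0.125 to 0.0111, Ppara from -0.321 to 0.0515, Ppard from -0.0948 to 0.0180, Ucp3 from -0.00561 to 0.268, Pdp1-202 from -0.984 to 0.0282 and Pdhx-202 from -0.00713 to 0.257, and the cause was not tested. The share of Pdp1-203 differed by 13.4 to 19.0 points with a library left out.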
